A study of Mus musculus with 8 samples.

Results

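Here 10 genes of the NF-kB system were read in stromal and carcinoma cells grown alone or together. They are the subunit genes Nfkb1, Nfkb2, Rela and Relb, the inhibitor genes Nfkbia, Nfkbie and Tnfaip3, and the target genes Birc3, Icam1 and Vcam1. A member was taken where the platform annotation gave a probe set exactly 1 of these symbols. Of the 10 genes, 9 were found in this way among the 19938 genes compared, each with 1 probe set, and Nfkb1 was not analysed here. Vcam1 and Birc3 separated the stromal line from the carcinoma line, while 0 of the 9 genes passed the test for a change with co-culture in either line.

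NF-kB is a family of dimeric transcription factors that rest in the cytoplasm bound to inhibitors of the IkB family. Signals from cytokine and Toll-like receptors activate the IkB kinase complex, the inhibitors are degraded, and the dimers enter the nucleus. Among the genes they switch on are their own inhibitors, so that the response limits itself, and genes for chemokines, cytokines, survival factors and adhesion molecules. The RNA of a subunit says little about its activity, which is set mainly by where the protein is, whereas the RNA of inhibitors and targets is widely read as an output of the pathway. In breast cancer that has spread to bone, NF-kB is known for its part in the exchange of cytokines between tumour cells, stroma and osteoclasts.

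RNA from mouse cells was hybridised to 8 Affymetrix MoGene arrays, 2 in each of 4 groups. MBA-15 is a stromal line of pre-osteoblastic character, and DA3 is a line from a mammary adenocarcinoma. All cells were kept in the same medium with fetal calf serum and antibiotics, and in co-culture DA3 cells were placed on an attached MBA-15 layer. After 24 h per the sample descriptions, cells were parted with magnetic particles against EpCAM, a surface protein of epithelial cells. The groups are MBA-15 from co-culture (EpCAM-negative fraction), MBA-15 grown alone, DA3 grown alone, and DA3 from co-culture (EpCAM-positive fraction). Both groups grown alone have "mix" in their descriptions. A fraction is named only for the co-culture groups. Effects of the separation and of co-culture can therefore not be told apart in the co-culture comparisons. Whether the 2 arrays per group stem from different cultures is not labelled. The p-values therefore cover only how far these samples scatter, a scatter that may be technical. By the assay numbers in the descriptions, DA3 co-culture array 2 is the only array with its number. A block for assay number therefore leaves DA3 co-culture to its other array.

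The arrays labelled MBA-15 alone went against their label in the epithelial markers but not in the stromal ones. The mean log2 level of 12 epithelial markers was 8.17 and 8.63 there, against 5.21 and 5.09 in co-cultured MBA-15, 9.35 and 9.29 in DA3 alone, and 8.79 and 9.26 in co-cultured DA3. Epcam itself stood at 8.45 and 9.25 for the group labelled MBA-15 alone, whereas it was 5.58 and 5.19 in co-cultured MBA-15. The mean of 12 stromal markers was 9.10 and 8.69 in co-cultured MBA-15, 8.51 and 8.59 for the group labelled MBA-15 alone, 5.87 and 6.02 in DA3 alone, and 7.05 and 6.4 in co-cultured DA3. On these means both lines thus showed their own markers, and the DA3 co-culture arrays had more stromal signal than DA3 alone. Not every stromal marker parted the lines: Thy1 was dim on all arrays, and for Twist1 the arrays of the lines overlapped. In such bulk RNA, fewer cells of a type and less RNA per cell cannot be told apart. Array medians lay between 4.479 and 4.642, and a level below the lowest of them is called dim here. Differences that rest on a dim level may understate the true ratio. Leukocyte markers averaged 4.01 to 4.36 and endothelial markers 3.75 to 4.00 on all arrays. Of 8 markers in each of these lists, 1 to 2 leukocyte markers and 1 endothelial marker per array were not dim. Ptprc, the pan-leukocyte marker, and Pecam1, an endothelial one, were dim on every array. The macrophage marker Cd68 (4.62 to 6.8) and the endothelial marker Cldn5 (4.9 to 5.92) were above the lowest median on all 8, and Cd14 was above it on 3. The part of such cells in the results was not tested.

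The promoters of several members carry matches to the motif through which NF-kB is known to switch on its own inhibitors, and their sequences are shown. Each line below is the 130 bases before the start of a RefSeq transcript (GRCm38.p6), 5′ to 3′ on the gene's strand, with matches to the kappaB consensus motif on either strand in capitals. The window searched ran from 250 bases before to 50 bases after each start.
Nfkbia, chr12:55492648-55492777, minus strand: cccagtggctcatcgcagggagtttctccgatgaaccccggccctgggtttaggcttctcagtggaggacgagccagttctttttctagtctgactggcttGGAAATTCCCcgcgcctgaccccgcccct
Nfkbie, chr17:45555570-45555699, plus strand: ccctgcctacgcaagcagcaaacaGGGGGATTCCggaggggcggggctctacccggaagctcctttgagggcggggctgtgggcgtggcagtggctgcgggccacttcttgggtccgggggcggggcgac
Tnfaip3, chr10:19015411-19015540, minus strand: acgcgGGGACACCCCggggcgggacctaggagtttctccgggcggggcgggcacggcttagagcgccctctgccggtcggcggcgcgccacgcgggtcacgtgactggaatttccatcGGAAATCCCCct
Nfkb2, chr19:46304607-46304736, plus strand: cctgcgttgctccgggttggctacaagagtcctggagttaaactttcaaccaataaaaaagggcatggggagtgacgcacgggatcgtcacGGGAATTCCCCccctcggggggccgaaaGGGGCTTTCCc
Ccl20, chr1:83116636-83116765, plus strand: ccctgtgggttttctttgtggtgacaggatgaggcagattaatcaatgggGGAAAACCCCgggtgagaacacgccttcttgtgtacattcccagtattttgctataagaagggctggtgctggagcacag
Il6, chr5:30012984-30013113, plus strand: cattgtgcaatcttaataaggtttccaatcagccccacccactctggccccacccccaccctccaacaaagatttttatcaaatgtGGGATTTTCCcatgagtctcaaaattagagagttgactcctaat

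The match in Nfkbia runs from position -29 to -20 relative to the start, and that in Nfkbie from -106 to -97. Tnfaip3 has a match on both strands from -125 to -116 and another from -12 to -3. In Nfkb2 overlapping matches run from -39 to -29 before the start shown, and a further one from -11 to -2. Ccl20 has its match from -80 to -71 and Il6 from -44 to -35. Of the 7 members with a window in the table, 4 hold a match, and Birc3, Icam1 and Rela do not within it. Of the 21 other NF-kB target genes with a window, 12 hold one, Ccl20 and Il6 included, both of which are taken up below. Over all 27025 genes with a window the share is 9.6%, or 8.46% of 32851 windows. A gene counts where any of its windows matches. The lists were made up of NF-kB genes and targets, so these shares test no excess over all genes. A match is a stretch of letters and shows no binding in these cells, and no match concerns only this window.

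Nfkb2 encodes the precursor of the subunit of the non-canonical pathway. Its log2 level was 7.01 and 6.78 in co-cultured MBA-15, 6.96 and 7.10 for the group labelled MBA-15 alone, 7.23 and 7.16 in DA3 alone, and 7.63 and 7.26 in co-cultured DA3. The order ran from DA3 co-culture down through DA3 alone and MBA-15 alone to MBA-15 co-culture, and among neighbours the arrays overlapped between the MBA-15 groups. The difference between the co-cultured lines was -0.55 ± 0.17 (SE, MBA-15 minus DA3) and did not pass (adjusted p = 0.0858, limma).

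Rela, which encodes the transactivating subunit of the classical dimer, was at 6.05 and 4.83 in co-cultured MBA-15 and at 6.15 and 6.36 for the group labelled MBA-15 alone. In DA3 it was at 6.81 and 6.47 alone and at 6.77 and 6.23 in co-culture. One array set the pattern: array 2 of MBA-15 co-culture lay more than 1 log2 unit below the other 7. Rela differed by -1.06 ± 0.40 between the co-cultured lines, which did not pass (limma, adjusted p = 0.144). Without array 1 of MBA-15 co-culture the difference was -1.67 and passed (adjusted p = 0.0223), and without array 2 it was -0.45 (adjusted p = 0.398). On that array 2, Nfkb2 and Relb also had their lowest value of the 8 arrays, as did 20 of 81 other pathway genes (24.7%) and 15.8% of all genes.

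Relb, the partner of the processed Nfkb2 product, stayed within a narrow range. It was at 4.86 and 4.54 in co-cultured MBA-15, 4.89 and 4.90 for the group labelled MBA-15 alone, 4.83 and 4.88 in DA3 alone, and 4.97 and 4.76 in co-cultured DA3. All neighbouring groups overlapped in this order of means, and the group means spanned 0.20 log2 units.

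**Figure D1:**
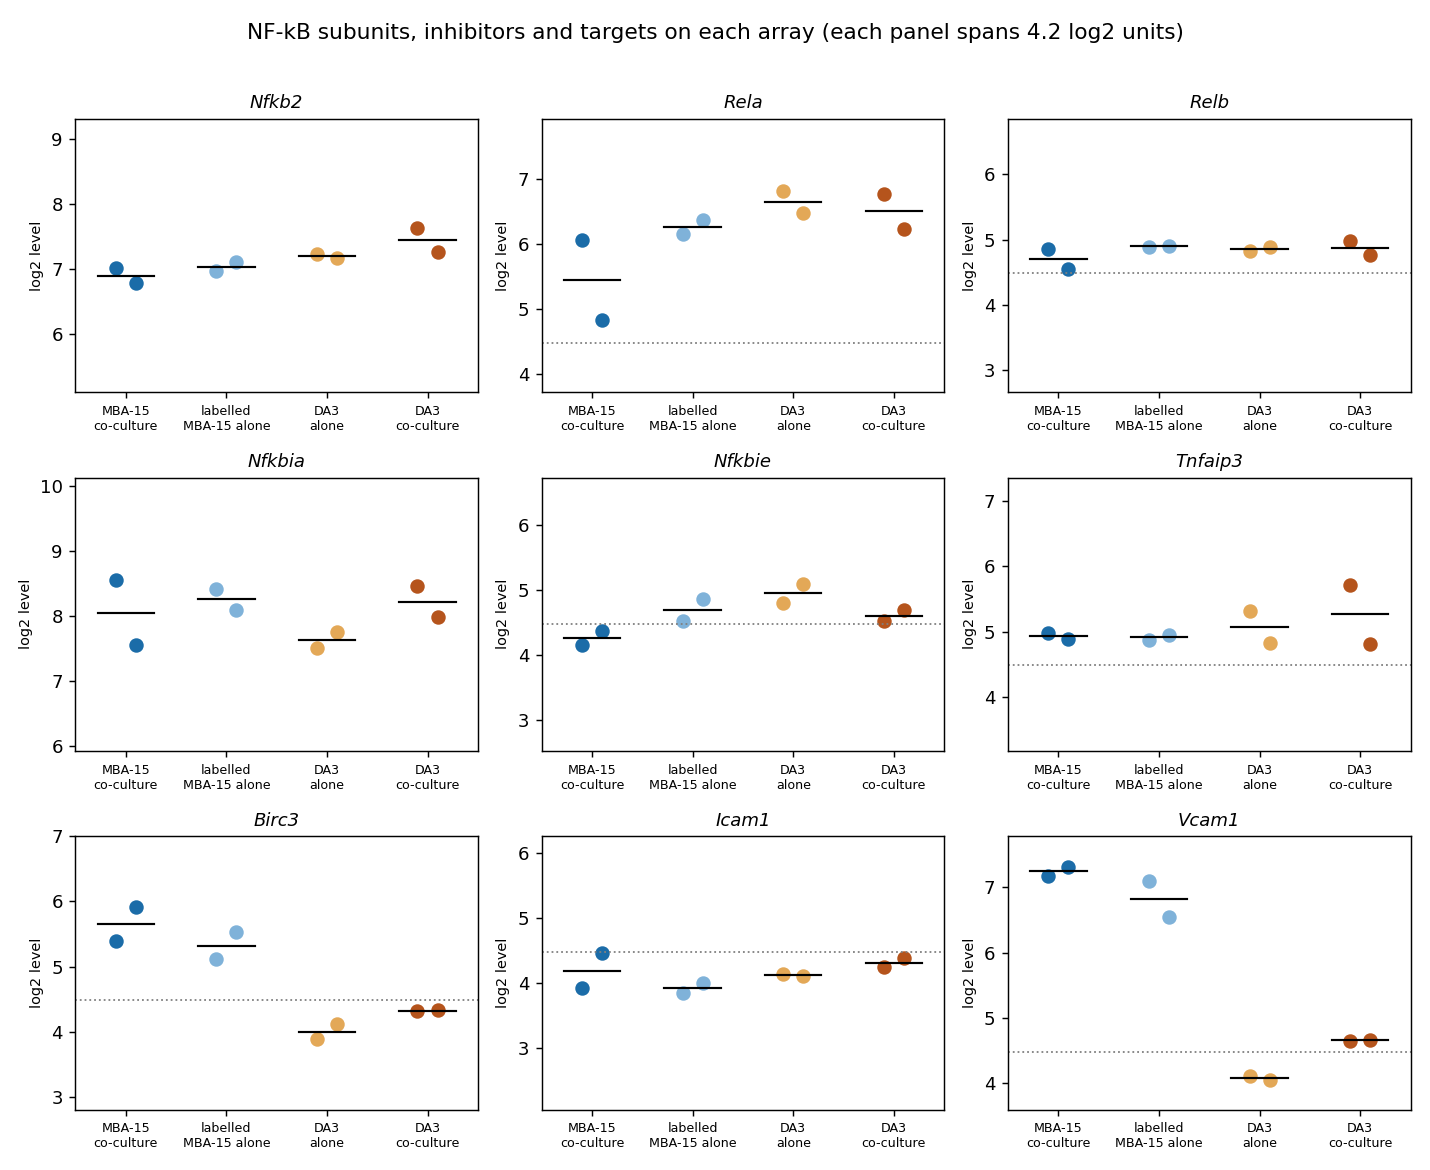
The log2 level (vertical axis, arbitrary log2 units of the arrays) of the 9 measured genes on each of the 8 arrays, by group. Points are single arrays, black bars are group means over 2 arrays, the dotted line is the lowest array median (4.479), and every panel spans the same height. Vcam1 and Birc3 are higher on all 4 MBA-15 arrays than on all 4 DA3 arrays, Rela is low on 1 array of MBA-15 co-culture, and Icam1 stays under the dotted line.

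Nfkbia encodes the best known IkB inhibitor and is one of the fastest feedback genes of the pathway. Its level was 8.55 and 7.56 in co-cultured MBA-15, 8.42 and 8.10 for the group labelled MBA-15 alone, 7.51 and 7.75 in DA3 alone, and 8.46 and 7.99 in co-cultured DA3. Both DA3 co-culture arrays lay above both DA3 alone arrays, and the arrays of MBA-15 co-culture were nearly 1 log2 unit apart. The difference in DA3, co-culture minus alone, was 0.59 ± 0.34 with a 95% interval from -0.22 to 1.40, and did not pass (limma, adjusted p = 0.44).

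Nfkbie, another IkB inhibitor, was dim in co-cultured MBA-15 (4.16 and 4.38). It was at 4.52 and 4.87 for the group labelled MBA-15 alone, at 4.81 and 5.10 in DA3 alone, and at 4.53 and 4.69 in co-cultured DA3. In both lines the co-culture arrays lay below those labelled alone, by 0.42 ± 0.18 in MBA-15 and 0.34 ± 0.18 in DA3. Neither difference passed (limma, adjusted p = 0.531 and 0.416).

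Tnfaip3 encodes a ubiquitin-editing enzyme that shuts off signalling upstream of the IkB kinase. It was at 4.98 and 4.89 in co-cultured MBA-15, 4.87 and 4.95 for the group labelled MBA-15 alone, 5.31 and 4.83 in DA3 alone, and 5.72 and 4.81 in co-cultured DA3. Each neighbouring pair in the order of group means overlapped. The spread between the DA3 co-culture arrays was wider than any difference between groups of this gene, whose means spanned 0.36.

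Vcam1, an adhesion molecule that binds integrins of leukocytes and is made by stromal and activated endothelial cells, showed the widest span of the 9 genes. Its level was 7.17 and 7.32 in co-cultured MBA-15, 7.10 and 6.54 for the group labelled MBA-15 alone, 4.10 and 4.05 in DA3 alone, and 4.64 and 4.66 in co-cultured DA3. No arrays of neighbouring groups overlapped, and DA3 alone was dim. Between the co-cultured lines Vcam1 was higher in MBA-15 by 2.59 ± 0.19 log2 units, a 6.03-fold difference (limma, adjusted p = 0.000755). Between the arrays labelled alone it was higher by 2.74 ± 0.19 (adjusted p = 0.00132), and within assay numbers 3 and 4 of the descriptions by 2.49 and 3. Both calls held without any single array.

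Birc3, an inhibitor of apoptosis that also ubiquitinates components of the receptor complexes, followed the same division. It was at 5.40 and 5.91 in co-cultured MBA-15, 5.11 and 5.53 for the group labelled MBA-15 alone, 3.89 and 4.11 in DA3 alone, and 4.31 and 4.33 in co-cultured DA3. All 4 DA3 arrays were dim, and the MBA-15 groups overlapped each other. Birc3 was higher in MBA-15 by 1.34 ± 0.22 between the co-cultured lines (limma, adjusted p = 0.0114) and by 1.32 ± 0.22 between the arrays labelled alone (adjusted p = 0.0329). The first call was lost when the fit held only these 2 groups (adjusted p = 0.052). The second was lost without either array labelled MBA-15 alone, either DA3 alone array or either DA3 co-culture array, with adjusted p up to 0.267 and differences from 1.11 to 1.53. With the MBA-15 co-culture arrays in place of those labelled MBA-15 alone, the difference from DA3 alone was 1.66.

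Icam1, an adhesion molecule and a common reporter of NF-kB activity, was dim on all 8 arrays. It was at 3.92 and 4.46 in co-cultured MBA-15, 3.85 and 4.00 for the group labelled MBA-15 alone, 4.14 and 4.11 in DA3 alone, and 4.25 and 4.38 in co-cultured DA3. Its group means spanned 0.39. No call was made in any comparison, and at this signal small differences may be missed.

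Between the co-cultured lines, the 2 calls among the 9 genes (22.2%, both higher in MBA-15) stand beside 12.8% of all genes called in either direction and 8.28% called higher and 4.48% lower. At an unadjusted p under 0.05 they were 4 of 9, against 27.6%, and arrays did not overlap for 5 (55.6%), against 55.1%. Between the arrays labelled alone, the same 2 genes were called, against 2.89% of all genes in either direction and 2.7% higher. At an unadjusted p under 0.05 they were 2, against 11.9%, and arrays did not overlap for 7 (77.8%), against 47.8%. The mean for the group labelled MBA-15 alone was intermediate to co-cultured MBA-15 and DA3 alone for 5 of the 9 genes (Nfkb2, Rela, Nfkbie, Birc3 and Vcam1), and for 51.9% of all genes. The members were chosen with earlier results of these data known, so the shares given here test no excess over all genes.

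**Figure D2:**
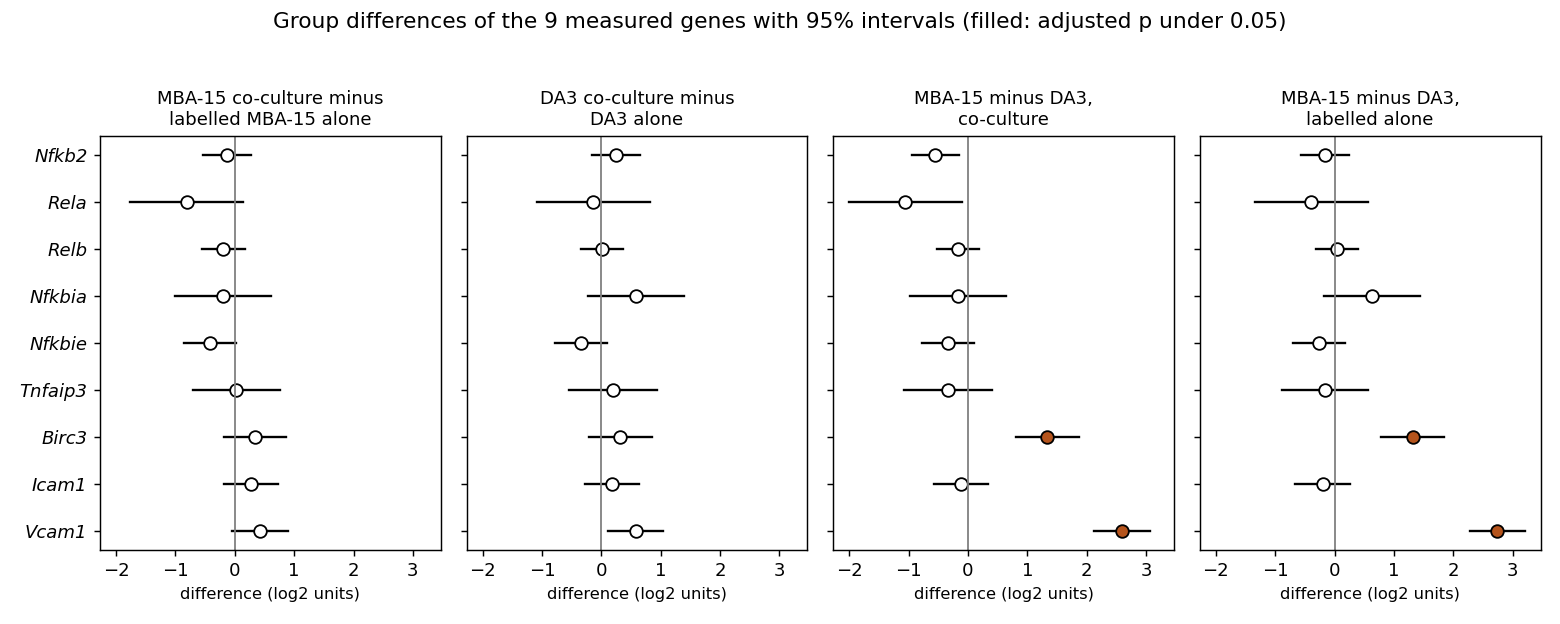
Differences between groups (horizontal axis, log2 units) of the 9 measured genes in 4 comparisons, with 95% intervals from limma. Filled points passed an adjusted p of 0.05: these are Birc3 and Vcam1 between the lines, and none in either co-culture comparison.

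The first co-culture comparison set MBA-15 cells that had met DA3 cells against those labelled alone. Of the 9 genes, 0 passed in MBA-15 (limma), 0 had an unadjusted p under 0.05, and over all genes these shares were 0.848% (0.772% lower) and 9.8%. The median difference was -0.13 over the 9 genes and 0.04 over all genes. Vcam1 differed by 0.42 ± 0.19 (95% interval -0.04 to 0.89, adjusted p = 0.564) and Birc3 by 0.34 ± 0.22 (interval -0.19 to 0.87). Rela differed by -0.81 ± 0.40 (interval -1.76 to 0.14), with -1.52 in assay 3 and -0.09 in assay 4, and by -0.20 without array 2 of MBA-15 co-culture. The Nfkbia interval ran from -1.01 to 0.61, so changes of either sign lie within this spread. The arrays of the 2 groups did not overlap for 4 of the 9 genes (44.4%), against 38.4% of all genes. The epithelial markers of the control arrays, given above, moved with this comparison, and their part in these values was not tested.

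The second set DA3 cells that had met MBA-15 cells against DA3 grown alone. Of the 9 genes, 0 passed in DA3 (limma), 1 had an unadjusted p under 0.05, and over all genes these shares were 0.0401% (0.0301% lower) and 14.9%. That gene was Vcam1, which stood 0.58 ± 0.19 higher in co-culture (interval 0.11 to 1.04, adjusted p = 0.281). The mean of the stromal markers was 5.87 and 6.02 in DA3 alone and 7.05 and 6.4 on the co-culture arrays, and Vcam1 is 2.59 units higher in the MBA-15 fraction. The part of stromal RNA in the Vcam1 value was not tested. Nfkb2 (0.25 ± 0.17), Nfkbia (0.59), Birc3 (0.32 ± 0.22), Icam1 (0.18 ± 0.19) and Vcam1 had both co-culture arrays above both arrays of DA3 alone, and Nfkbie had them below. Such separation held for 6 of 9 genes (66.7%) and for 53.8% of all genes, of which 31.4% lay higher and 22.4% lower in co-culture.

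The test of the difference between the 2 co-culture changes passed for 0 of the 9 genes (limma), with 0 at an unadjusted p under 0.05, beside 0.0602% and 6.32% of all genes. The largest estimates were -0.80 ± 0.48 for Nfkbia (interval -1.94 to 0.35) and -0.67 ± 0.56 for Rela (interval -2.02 to 0.68). For Vcam1 it was -0.15 ± 0.27 and for Birc3 0.02 ± 0.31. These intervals do not show that the lines responded alike.

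The rest of the pathway was read from lists that hold 89 further genes, 81 of them measured. Of the other subunit and IkB genes, 0 of 5 passed in any of the 5 comparisons (limma), and 2 and 3 of the 5 had an unadjusted p under 0.05 between the co-cultured lines and between those labelled alone (0 in the other comparisons). Over all genes the shares under that p were 27.6% between the co-cultured lines and 11.9% between those labelled alone. Nfkbiz, an atypical nuclear IkB protein, stood 1.11 ± 0.32 higher in MBA-15 between the co-cultured lines (adjusted p = 0.0724). Rel, the haematopoietic subunit, was at 7.28 and 7.28 in DA3 alone and at 6.86 and 6.46 in co-cultured DA3, a difference of -0.62 ± 0.28 (adjusted p = 0.37). Among 9 kinases of the cascade, Map3k14, the kinase that starts the non-canonical pathway, was higher in co-cultured MBA-15 than in co-cultured DA3 by 0.81 ± 0.18 (adjusted p = 0.0354). Among 12 adaptors, Traf5 was higher by 1.41 ± 0.22 (adjusted p = 0.00885). These single calls were 11.1% of the kinases and 8.33% of the adaptors, beside 12.8% of all genes called between the co-cultured lines. With the assay number as a block, which leaves DA3 co-culture to its array 1, the differences were 0.53 for Map3k14 and 1.36 for Traf5. No call is read from that fit. Traf5 was dim on the DA3 co-culture arrays (4.19 and 4.22), as was the Map3k14 mean of 4.46 there. Of 10 genes listed as negative regulators, 0 passed in any comparison. Of these, 1 to 3 had an unadjusted p under 0.05 in each comparison of groups, beside 9.8% to 27.6% of all genes. For the difference of changes the count was 0, beside 6.32% of all genes. Tnip3, a partner of the Tnfaip3 protein, was at 5.09 and 5.47 in DA3 alone and at 3.94 and 3.91 in co-cultured DA3, and missed the threshold (-1.35 ± 0.19, adjusted p = 0.0906).

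Of 10 receptor genes, 3 were higher in co-cultured MBA-15 than in co-cultured DA3 and 0 lower, beside 8.28% and 4.48% of all genes. The other 7 did not pass, and 4 of the 10 had differences below 0. Tlr4, the receptor for bacterial lipopolysaccharide, was higher by 2.77 ± 0.31 (limma, adjusted p = 0.00274), the tumour necrosis factor receptor gene Tnfrsf1b by 2.12 ± 0.27 and the lipopeptide receptor gene Tlr2 by 1.16 ± 0.16. Tlr3, the receptor for double-stranded RNA, fell by 1.44 ± 0.21 in the MBA-15 comparison (adjusted p = 0.0378), and this call was lost without any 1 of the 8 arrays and when assay number was a block (0.0893). Tlr3 was at 7.46 and 7.76 in DA3 alone and at 6.04 and 6.10 in co-cultured DA3, a difference of -1.54 ± 0.21 that did not pass (adjusted p = 0.0869). Of 8 ligands, Tnfsf14 was lower in co-cultured MBA-15 than in co-cultured DA3 (-0.76 ± 0.19, adjusted p = 0.0447). This single call was 12.5% of the ligands, beside 12.8% of all genes called in either direction and 4.48% called lower. The cytokine genes Tnf, Lta, Ltb and Il1b were dim on all arrays, so differences in these genes may be understated. Il1a was dim except on the DA3 co-culture arrays (4.55 and 4.79). Its difference from DA3 alone, 0.53 ± 0.23, did not pass (limma, adjusted p = 0.344). Tnfsf11 was above the lowest median on all 8 arrays and Tnfsf14 on 7.

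Target genes beyond the members stood on both sides of the comparison. Between the co-cultured lines, 8 of 27 measured targets were higher in MBA-15 and 6 lower (51.9% called, against 12.8% of all genes), with a median difference of 0.29 against -0.07 over all genes. The lists were chosen with earlier results of these data known, and all genes include dim ones. This share and those below therefore describe the lists and test no excess. Ccl2, a chemokine for monocytes, was at 9.65 and 9.93 in co-cultured MBA-15 and at 6.13 and 5.42 in co-cultured DA3, a difference of 4.01 ± 0.32 (limma, adjusted p = 0.000854). The related chemokine gene Ccl7 was higher by 3.33 ± 0.37, the acute-phase gene Saa3 by 3.11 ± 0.58, and the cytokine gene Il6 by 2.95 ± 0.21. Cxcl10 (2.85 ± 0.69), Ccl5 (2.53 ± 0.26), the macrophage growth factor gene Csf1 (2.26 ± 0.36) and the transcription factor gene Irf1 (1.52 ± 0.22) completed this group. Il6 was at 6.41 and 6.72 in co-cultured MBA-15 and dim on all 4 DA3 arrays, between 3.54 and 3.69.

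The other 6 targets were higher in DA3. Csf3, the granulocyte growth factor gene, was at 6.91 and 7.81 in co-cultured DA3 and at 4.19 and 3.92 in co-cultured MBA-15, a difference of -3.31 ± 0.39 (adjusted p = 0.00333, limma). Lif, a cytokine of the Il6 family, differed by -2.70 ± 0.20, the plasminogen activator gene Plau by -2.50 ± 0.41, the early response gene Ier3 by -2.18 ± 0.33, the proteoglycan gene Sdc4 by -1.02 ± 0.25 and the growth factor gene Csf2 by -0.89 ± 0.16. These genes thus did not move as a block: members of the same target list stood on opposite sides of the comparison. In all, 20 of 81 pathway genes (24.7%) were called there, 13 higher and 7 lower, beside 12.8% of all genes. Of these 20 calls, 13 held without each single array, Traf5 among them. With the assay number as a block, the differences were -0.8 for Csf2, 1.36 for Traf5, 0.53 for Map3k14 and -0.53 for Tnfsf14. That fit leaves DA3 co-culture to its array 1. Csf2 was lost without either MBA-15 co-culture array or without DA3 co-culture array 2, Plau without MBA-15 co-culture array 2, and Saa3 without MBA-15 co-culture array 1 or DA3 co-culture array 1. Cxcl10, Map3k14, Sdc4 and Tnfsf14 were each lost without any of 5 to 7 arrays. Without both arrays labelled MBA-15 alone, Map3k14 (adjusted p = 0.0638), Sdc4 (0.0723) and Tnfsf14 (0.0618) missed the threshold.

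**Figure D3:**
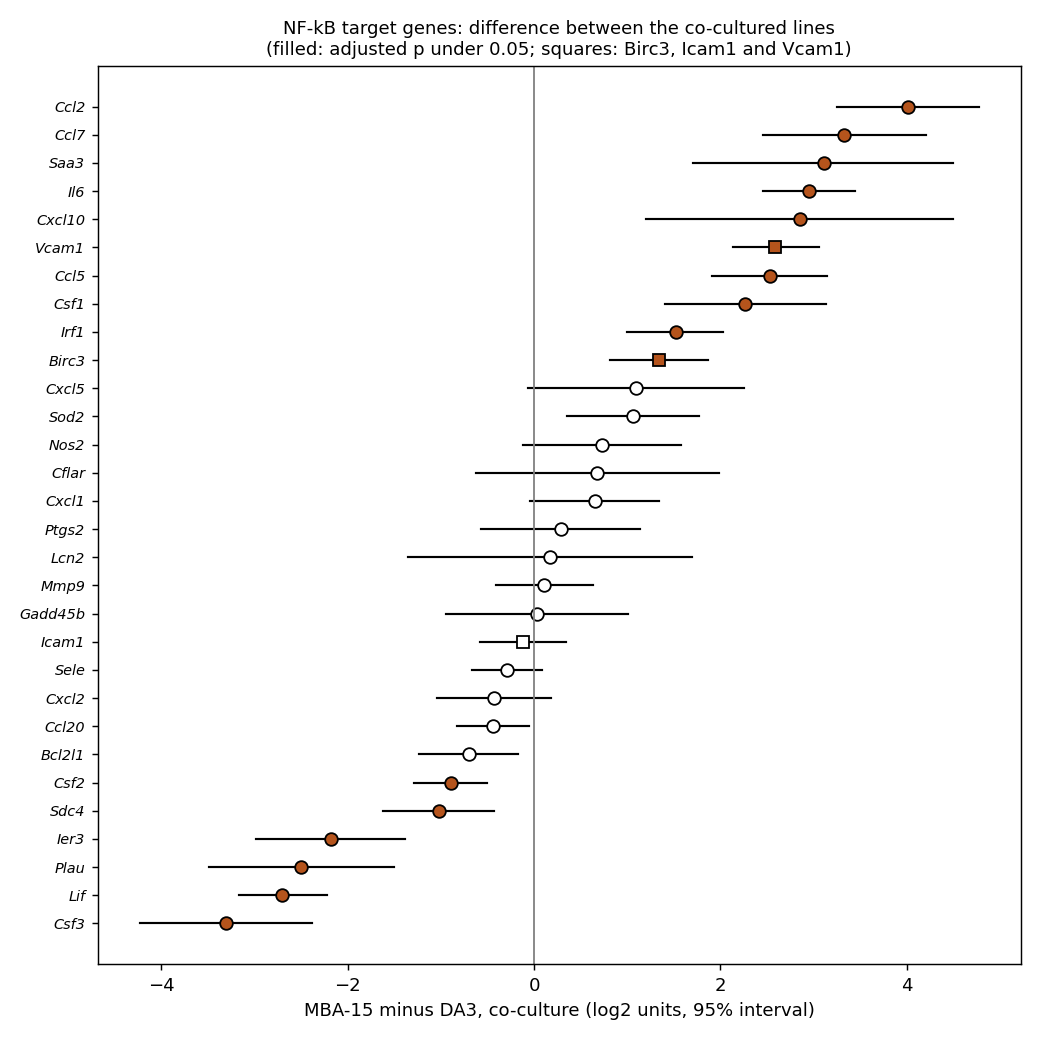
Difference between MBA-15 co-culture and DA3 co-culture (horizontal axis, log2 units, positive where MBA-15 is higher) for 27 target genes and the members Birc3, Icam1 and Vcam1, with 95% intervals from limma. Filled points passed an adjusted p of 0.05: 10 lie on the MBA-15 side, led by Ccl2 at 4.01, and 6 on the DA3 side, led by Csf3 at -3.31.

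Between the arrays labelled alone, 6 of the 27 targets were higher in MBA-15 and 0 lower (22.2%, against 2.89% of all genes). Ccl2 was at 9.50 and 9.05 against 4.64 and 5.26 in DA3 alone (4.32 ± 0.32, adjusted p = 0.00142, limma). Saa3 (4.00 ± 0.58), Ccl7 (3.81 ± 0.37), Ccl5 (2.56 ± 0.26), Il6 (2.32 ± 0.21) and Csf1 (1.99 ± 0.36) were higher too. Ccl2 and Il6 held without each single array. Ccl5 was lost without either DA3 alone array, Ccl7 without DA3 alone array 1, and Saa3 and Csf1 without any 1 of the 4 arrays compared. This comparison rests on arrays with epithelial signal in both groups. With MBA-15 co-culture in place of the arrays labelled MBA-15 alone, 22 of 81 pathway genes were called, 13 higher and 9 lower. Over all 19938 genes, 2503 were called there. In that comparison with DA3 alone, co-culture differed as well as the line.

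Ccl20, a chemokine for lymphocytes and dendritic cells, was the 1 pathway gene called in both co-culture comparisons. It was at 3.84 and 3.72 in co-cultured MBA-15, 5.90 and 5.79 for the group labelled MBA-15 alone, 6.4 and 6.53 in DA3 alone, and 4.42 and 4.02 in co-cultured DA3. Both co-culture groups were dim and both groups labelled alone were clearly above. As the co-culture groups are EpCAM fractions, co-culture and separation cannot be told apart here. Ccl20 fell by 2.24 ± 0.16 in DA3 (limma, adjusted p = 0.0331) and by 2.06 ± 0.16 in MBA-15 (adjusted p = 0.00713). The DA3 call was lost without most of the single arrays, with changes from -2.44 to -2.04. It was also lost without both arrays labelled MBA-15 alone (limma, adjusted p = 0.0801). With assay number as a block, which leaves DA3 co-culture to its array 1, the DA3 change was -2.03. The MBA-15 call was lost without MBA-15 co-culture array 2 (0.0735). Lif fell in the MBA-15 comparison by 1.43 ± 0.20 (adjusted p = 0.0328), from 6.11 and 6.45 to 4.84 and 4.86, and held only without either DA3 co-culture array. Ccl20, Lif and Tlr3 were each higher in DA3 alone than in co-cultured MBA-15, as were the epithelial markers, whose part in the 3 falls in MBA-15 was not tested. In all, 3 of 81 pathway genes (3.70%) fell in MBA-15, where 0.772% of all genes were called lower, and 1 of 81 (1.23%) in DA3, where 0.0301% were. In either line, 0 rose.

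**Figure D4:**
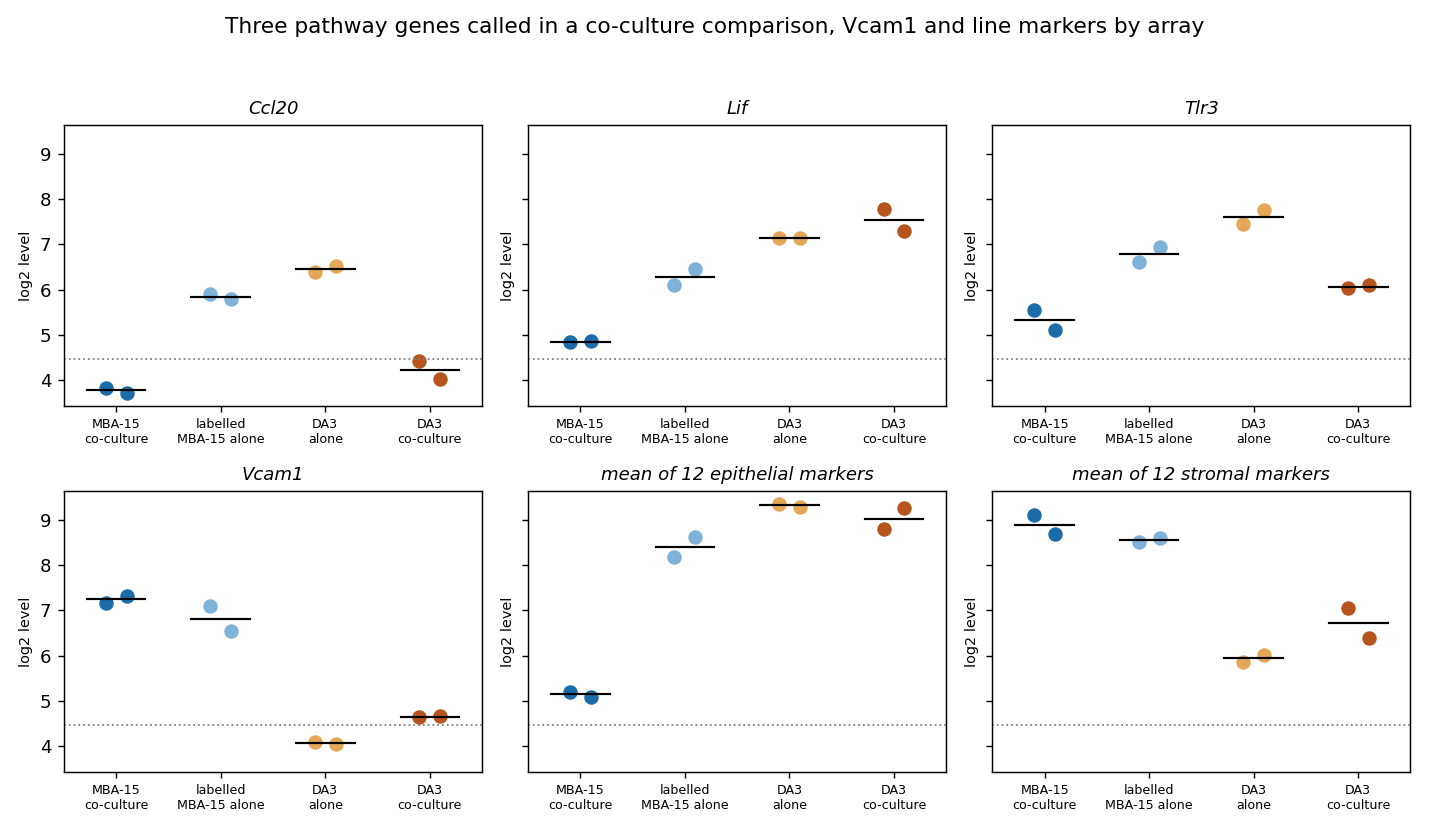
Log2 levels (vertical axis, shared by all panels) of Ccl20, Lif, Tlr3 and Vcam1 and the means of 12 epithelial and 12 stromal markers on each of the 8 arrays, by group. Points are arrays, bars are group means and the dotted line is the lowest array median (4.479). Ccl20 is below the line in both co-culture groups, and the arrays labelled MBA-15 alone have epithelial means of 8.17 and 8.63, close to DA3.

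Over the 8 arrays, the genes whose levels ran most like Vcam1 among 18614 named genes were Twist2, Galm and Trim30a (Pearson r = 0.998, 0.998 and 0.997). Twist2, a transcription factor of mesenchymal cells, was at 7.32 and 7.26 in co-cultured MBA-15 and at 3.86 and 3.93 in DA3 alone. For Birc3 they were Pir, Arhgdib and Hacd4 (0.997, 0.994 and 0.990), and for Rela they were Vars, Sart1 and Ephb4 (0.997, 0.995 and 0.992). Vars, the valyl-tRNA synthetase gene, was at 8.45 and 7.07 in co-cultured MBA-15 and between 8.57 and 9.27 on the other 6 arrays, so it shares the low array of Rela. These correlations describe 8 arrays of 4 groups, with the difference between the lines common to the genes like Vcam1 and Birc3.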

How the data were processed

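RNA was measured on 8 MoGene-1_0-st-v1 arrays. The authors deposited 1 log2 value for each probe set and array, and RMA and Partek 6.5 are named in the submitters' processing notes. Their settings are not given in the sources used here, and the log2 scale was read from the range of the values. RMA brings arrays to a common distribution, so each change is measured against the bulk of genes. Depth does not apply, and the number of arrays limits the precision.

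Of 35556 probe sets, 21789 had 1 gene symbol in the platform annotation, 1621 several, and 12146 were unnamed here. The probe set with the highest mean was kept per gene (19938 genes, no filter). Groups came from the sample titles. The 4 group means were fitted together on the 8 arrays (limma 3.58.1, R 4.3.3, lmFit and eBayes, 4 residual and 2.6 prior degrees of freedom). Two-sided p-values were Benjamini-Hochberg adjusted across the 19938 genes, with 0.05 as threshold. Intervals are 95% intervals from the moderated fit, errors of differences are standard errors, and no set test was run. The fit was tested on simulated data.

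The members and lists were chosen with earlier results of these data known. All members are named. Of each list, the genes that passed are named, with up to 3 of the largest that did not, and for the 3 members of widest range the 3 most correlated genes, predicted loci passed over. Individual arrays, blocks for replicate and assay number, other fits, a filter on dim genes, centring, probe set choice and a variance trend were varied, along with 2 alternatives added after seeing the data. Promoter sequences are from RefSeq (GRCm38.p6), matched by symbol for 7 of 10 members.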

Additional observations from a re-analysis of the deposited data

Results flagged for a closer look

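Of the 81 pathway genes, 5 had every co-culture array on one side of its control in MBA-15 and on the opposite side in DA3. None of the 5 was a member, and none passed the test of the difference between the 2 changes (limma, adjusted over all genes). The share of all genes with such opposite sides was not computed, so the count of 5 is not read as a result about the pathway. Arrays of co-culture and control did not overlap for 38.4% of all genes in MBA-15 and for 53.8% in DA3. Lif differed by -1.83 ± 0.28, with -1.43 in MBA-15 and 0.40 in DA3 (adjusted p = 0.147). Csf3 differed by -2.34 ± 0.55, with -1.11 and 1.23 (adjusted p = 0.392). Ier3 differed by -2.00 ± 0.47, with -0.95 and 1.05 (adjusted p = 0.397). Traf5 differed by 0.59 ± 0.31, with 0.46 and -0.14 (adjusted p = 0.881), and Otulin, a deubiquitinase that restrains the pathway, by 0.63 ± 0.33, with 0.16 and -0.47 (adjusted p = 0.885). The controls of the MBA-15 change are the arrays with epithelial signal, whose part was not tested.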

How the results depend on the processing

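The 9 member differences were recomputed 688 times in all: 645 kept their direction and side of the threshold, 7 lost a call, 1 gained one, and 35 changed sign with no call. In both co-culture comparisons and in their difference, 0 members were called under every alternative run. The cause of the changes below was not tested.

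With the replicate number as a block (replicate block), 3 genes and 0 pathway genes were called in DA3 and 0 genes for the difference of changes, and it changed no count of members called. The correlations of same-numbered deviations between groups ran from -0.41 to 0.31, so the numbers were not taken to pair arrays. With the assay number as a block, DA3 co-culture was left to its array 1. Rela in DA3 then became 0.36, Icam1 between the co-cultured lines 0.06 and Nfkbie in the difference 0.14. With only the 2 groups compared, MBA-15 had 28 genes and 1 pathway gene and DA3 0 and 0. The co-cultured lines then had 1123 genes, 1 member and 12 pathway genes, and the lines labelled alone 10 pathway genes. Without dim genes, 44 were called in DA3 and 29 for the difference. With an intensity trend, MBA-15 had 326 genes and 6 pathway genes, DA3 120 and 5, the lines labelled alone 11 pathway genes and the difference 36 genes. Centring shifted the median of all genes by up to 0.12. It turned Tnfaip3 in MBA-15 to -0.01, Relb in DA3 to -0.11 and between the lines labelled alone to -0.04, and Nfkbie in the difference to 0.01.

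Both alternatives that follow were chosen after seeing the data. Without both arrays labelled MBA-15 alone, DA3 had 2 genes and 0 pathway genes. With co-cultured MBA-15 in their place, 2503 genes (48.5% higher, against 93.6%) and 22 pathway genes differed from DA3 alone, Relb by -0.16 and Icam1 by 0.07.

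Leaving out single arrays gave 13 to 198 genes and 0 to 2 pathway genes in MBA-15, and 0 to 3 and 0 to 1 in DA3. It gave 1642 to 2229 genes, 2 to 3 members and 17 to 20 pathway genes between the co-cultured lines. Between those labelled alone it gave 136 to 627 genes, 1 to 2 members and 3 to 8 pathway genes, and for the difference 0 to 8 genes. Signs changed for Icam1 (0 to 0.54), Nfkbia (-0.7 to 0.29) and Tnfaip3 (-0.02 to 0.07) in MBA-15, and for Rela (-0.4 to 0.13), Relb (-0.09 to 0.12) and Tnfaip3 (-0.26 to 0.65) in DA3. They also changed for Icam1 (-0.39 to 0.15), Nfkbia (-0.66 to 0.33) and Tnfaip3 (-0.79 to 0.12) between the co-cultured lines and Tnfaip3 (-0.4 to 0.08) between those labelled alone. In the difference they changed for Birc3 (-0.24 to 0.28), Icam1 (-0.18 to 0.35), Nfkbie (-0.26 to 0.1), Tnfaip3 (-0.63 to 0.28) and Vcam1 (-0.43 to 0.13). An arm left with 1 array is assumed to vary like the others. With 2 arrays a group, and Icam1 and several cytokine genes dim, small changes were not detectable.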

Other observations

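Some pathway genes had wide differences that did not pass. Lcn2, an iron-binding acute-phase protein, was at 10.80 and 11.36 in DA3 alone and at 7.15 and 8.76 in co-cultured DA3 (-3.12 ± 0.64, limma, adjusted p = 0.168). It was at 10.13 and 11.17 for the group labelled MBA-15 alone, against 7.58 and 8.68 in co-cultured MBA-15 (-2.52 ± 0.64, adjusted p = 0.2). Ptgs2, the inducible prostaglandin synthase, was at 9.56 and 8.40 in DA3 alone and at 10.92 and 11 in co-cultured DA3 (1.98 ± 0.36, adjusted p = 0.139). The receptor gene Tnfrsf1b was at 6.82 and 7.36 in DA3 alone and at 5.93 and 5.41 in co-cultured DA3 (-1.42 ± 0.27, adjusted p = 0.146).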
